A study of Homo sapiens with 24 samples.

Results

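The proteasome genes of 3D LUHMES aggregates were examined after a short exposure to rotenone and after its removal. Members were all protein-coding genes on the array whose symbol begins with PSMA, PSMB, PSMC, PSMD, PSME, PSMF or PSMG followed by a digit, whatever their values. This rule took 50 of the 21240 genes tested, measured by 68 probes, and all 50 passed the filter on dim spots. LUHMES is a conditionally immortalized line of human mesencephalic cells that turns into dopaminergic neurons once tetracycline shuts off its v-myc transgene, so that every value comes from a single line. Aggregates were kept on a shaker in medium with cAMP, GDNF, tetracycline and N2. On day 7 they received rotenone, an inhibitor of mitochondrial complex I, at 50 nM for 12 or 24 h or at 100 nM for 24 h, or DMSO in the amount that came with 100 nM. Collection took place right after exposure, on day 8, or on day 15, when 7 days without rotenone had passed since its wash-out. This gave 8 groups of 3 arrays, named here DMSO, 50 nM 12 h, 50 nM 24 h and 100 nM 24 h of each day. The labels give no exposure time for DMSO, so the 12 h group has no control of its own.

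The 26S proteasome is the protease that degrades proteins tagged with ubiquitin. Its 20S core is a barrel of 4 rings, with alpha subunits (PSMA) in the outer rings and beta subunits (PSMB) in the inner ones, and only some beta subunits cut. The 19S cap recognizes, unfolds and feeds in the substrate, with a ring of ATPases (PSMC) and a set of non-ATPase subunits (PSMD). Neurons, which do not divide, depend on this route to clear damaged proteins. Under interferon or stress, PSMB8, PSMB9 and PSMB10 can replace the catalytic PSMB5, PSMB6 and PSMB7, which gives the immunoproteasome.

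Signals are log2 of the normalized spot intensity, and a difference of 1 is a doubling. A gene was called when its Benjamini-Hochberg adjusted p over all genes, from limma, was under 0.05 at any fold change, and "rose" and "fell" are used of called genes only. The labels number 3 replicates per group without saying whether they are separate cultures, so p values measure the spread between these samples, which may be technical. Bulk RNA cannot separate fewer cells of a type from less RNA per cell. Of the 50 members, 45 were well above background on all 24 arrays and 0 had a saturated spot. The exceptions were the testis subunit PSMA8 (0 arrays), the immunoproteasome subunits PSMB8 (3 arrays) and PSMB9 (11 arrays), the thymus subunit PSMB11 (9 arrays) and the assembly chaperone PSMD5 (19 arrays). PSMC3IP, a recombination partner, and PSME3IP1, which binds PSME3, entered by symbol and are not subunits.

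The arrays carried neuron markers, with 11 of 12 well above background on every array. The exception was SLC18A2, on 3 arrays. Of the precursor and proliferation markers, 6 of 11 (CCNB1, CCNA2, BIRC5, NES, VIM and PAX6) were well above background on every array too, and SOX2 was on 0. Of the immune cell markers tested, 0 of 8 were, although PTPRC was on 23 arrays and CD68 on 19, and C1QA was on 2. Of the glial markers 1 of 7 was, MBP, although OLIG2 was well above background on 23 arrays, and GFAP was on 1. Between 50.9% and 82.4% of spots were well above background, with the highest shares, from 67.3% up, on slide 1. Slide 1, which holds replicate 1 of each group, was a repeated slide according to the labels and was batch-corrected. The scan of day 15 DMSO replicate 1 does not name DMSO, and its group rests on its label.

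After 100 nM rotenone for 24 h, several genes of the 19S cap were lower than in DMSO on day 8 and PSMB10 was higher. Of the 50 members, 1 rose and 6 fell, against a background of 4.07% of all genes called up and 5.41% called down. This background includes dim genes. With only spots kept that were well above background on all arrays of some group, 2581 of 15595 genes and 10 members were called. PSMB10 rose by 0.75 on the log2 scale, and PSMD1, PSMA1, PSMD14, PSMC3, PSMD6 and PSMC1 fell by 0.34 to 0.50. PSMB10 was also the only member with a fold change over 1.5, a rule that 1.43% of all genes met upward and 2.02% downward. The median over the members was -0.15, and that over all genes was -0.02. Groups did not overlap for 5 members that were higher and 19 that were lower with rotenone, against 12.6% and 15.8% of all genes.

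The roles differed in their medians at 100 nM. The 17 subunits of the 19S cap that the symbol rule took had a median of -0.26, with 16 lower than DMSO and 5 called down. The 15 alpha and constitutive beta subunits of the 20S core had a median of -0.09, with 14 lower and 1 called. PSMA8 counts among the 14, although it was not well above background on any array. Within the cap, the medians were -0.33 for the 6 ATPases and -0.23 for the 11 non-ATPase subunits. PSMD8, a subunit of the lid, was the only one of these 17 cap subunits above DMSO, at 0.21 (SE 0.07), and it was not called (limma adjusted p = 0.0631).

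**Figure D1:**
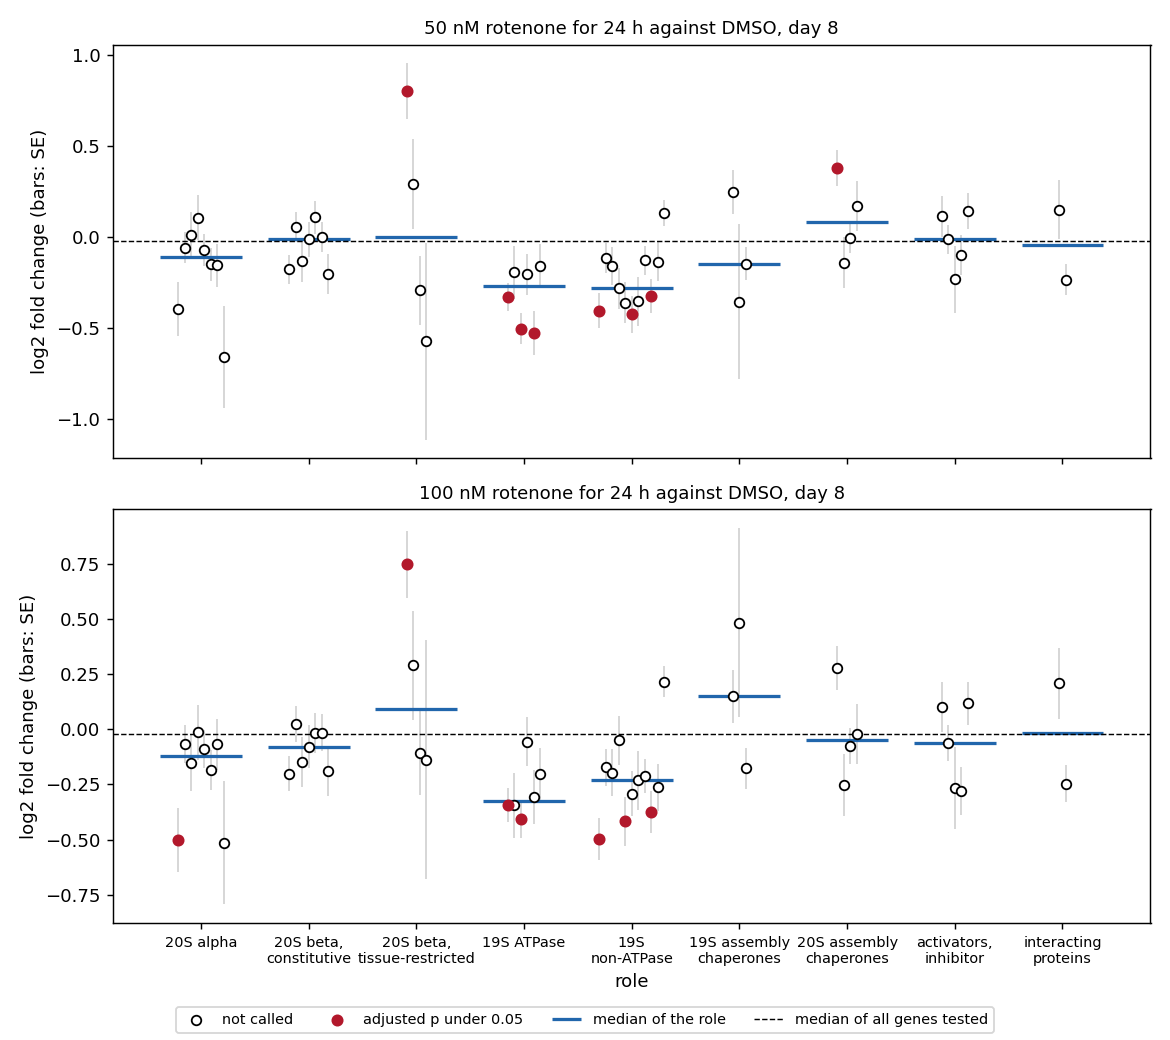
Log2 fold change against DMSO on day 8 of each proteasome gene (points, with SE bars), sorted by role on the horizontal axis, for 50 nM (top) and 100 nM rotenone (bottom) for 24 h; filled points have an adjusted p under 0.05, blue lines are medians of a role and the dashed line is the median of all genes tested. The ATPase and non-ATPase subunits of the 19S cap lie mostly below the dashed line, and PSMB10 lies above all other points.

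The core subunits PSMB5, PSMB6 and PSMB7, which carry the chymotrypsin-like, caspase-like and trypsin-like activities, were not called. PSMB5 read 13.18, 12.98 and 13.17 in DMSO and 13.18, 13.11 and 12.99 with 100 nM, a difference of -0.02 (95% confidence interval -0.21 to 0.17). PSMB6 read 12.81, 12.67 and 12.74 in DMSO and 12.75, 12.70 and 12.72 with 100 nM, a difference of -0.02 (95% confidence interval -0.19 to 0.16). PSMB7 read 13.30, 12.94 and 13.21 in DMSO and 13.04, 12.90 and 12.94 with 100 nM, a difference of -0.19 (95% confidence interval -0.42 to 0.04). At 100 nM the groups overlapped for all of these, and each interval excludes a change of 1.5-fold. On the log2 scale, the values with 50 nM were -0.02 and 0.11 for PSMB5 (12 h, then 24 h), 0.11 and 0.00 for PSMB6, and -0.06 and -0.20 for PSMB7, none of them called.

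PSMB10, the immunoproteasome counterpart of PSMB7, rose in all 3 comparisons of day 8. It read 10.04, 9.96 and 10.10 in DMSO of day 8. It read 10.65, 10.71 and 10.93 with 50 nM for 12 h, 10.91, 10.59 and 11.004 with 50 nM for 24 h, and 10.81, 10.61 and 10.92 with 100 nM. All 9 exposed arrays lay above all 3 DMSO arrays. The rise was 0.73, 0.80 and 0.75 on the log2 scale (SE 0.15 each), or 1.65-, 1.74- and 1.68-fold, with limma adjusted p of 0.00738, 0.00252 and 0.00365. It stayed called at 100 nM in 10 of 11 other settings and without each of the 6 arrays in turn, and was lost with slides 2 and 3 alone, which leave 2 arrays per group (limma adjusted p = 0.208).

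The other replaceable subunits could not be read in the same way. PSMB8, the counterpart of PSMB5, was not well above background on any array of day 8, where its signal ran from 3.66 to 4.05 in DMSO and from 3.26 to 4.09 with 100 nM. PSMB9, the counterpart of PSMB6, cleared background on a single array of every day 8 group. It read 5.24, 5.08 and 4.87 in DMSO and 5.09, 4.61 and 5.07 with 100 nM. A change of either was not detectable at this signal.

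**Figure D2:**
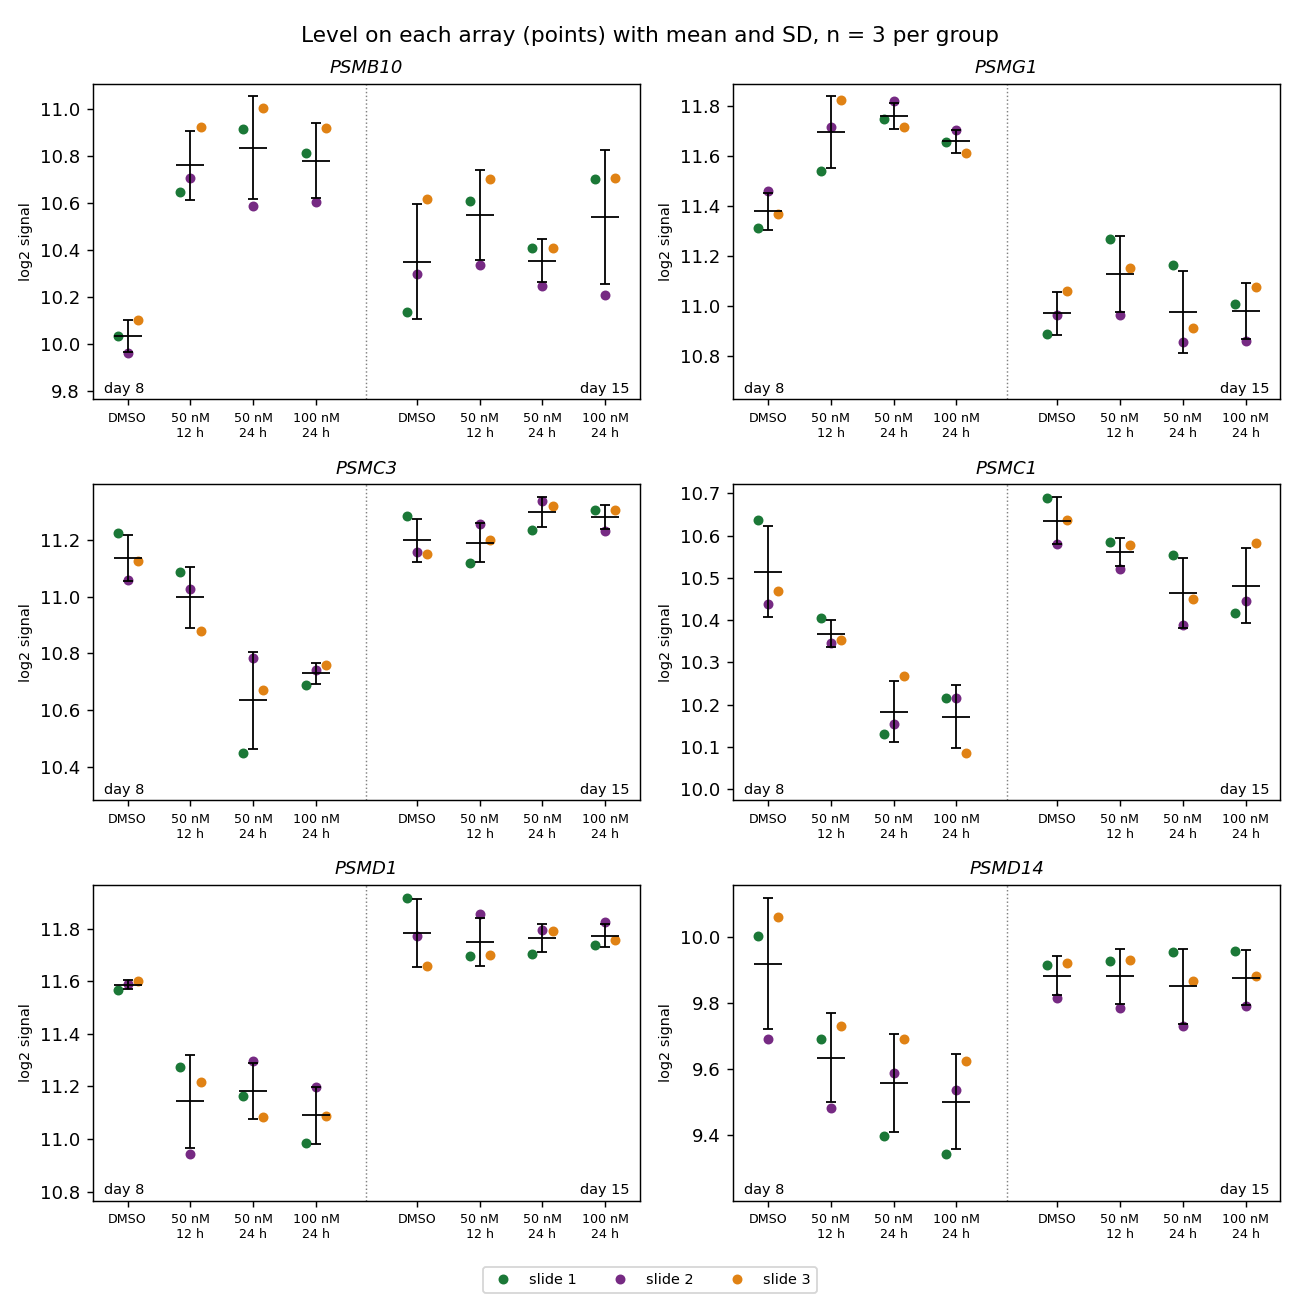
Log2 signal (vertical axes, each with its own range) of PSMB10, PSMG1, PSMC3, PSMC1, PSMD1 and PSMD14 on each array, coloured by slide, with mean and SD of the 3 arrays of each group on the horizontal axis. On day 8, the group means of PSMB10 and PSMG1 are higher with rotenone than in DMSO and those of the other 4 are lower, while on day 15 the groups overlap in most panels.

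Among the ATPases, which unfold substrates at the mouth of the core, PSMC3 and PSMC1 fell. PSMC3 read 11.22, 11.06 and 11.12 in DMSO, 10.45, 10.79 and 10.67 with 50 nM for 24 h, and 10.69, 10.74 and 10.76 with 100 nM. It fell by 0.50 (SE 0.09, limma adjusted p = 0.00104) and by 0.41 (SE 0.09, limma adjusted p = 0.00481) without overlap between the groups, while 50 nM for 12 h gave -0.14 (limma adjusted p = 0.479). PSMC1 read 10.64, 10.44 and 10.47 in DMSO, 10.13, 10.15 and 10.27 with 50 nM for 24 h, and 10.21, 10.21 and 10.08 with 100 nM. It fell by 0.33 and 0.34 (SE 0.08 each, limma adjusted p = 0.0106 and 0.00678), also without overlap.

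PSMC5, another ATPase, was called with 50 nM for 24 h alone. Its signal was 10.995, 10.72 and 10.58 in DMSO, 9.91, 10.43 and 10.38 with 50 nM for 24 h and 10.47, 10.40 and 10.50 with 100 nM. It fell by 0.52 at 50 nM (SE 0.12, limma adjusted p = 0.0101) and differed by -0.31 at 100 nM (limma adjusted p = 0.134). The ATPases PSMC2, PSMC4 and PSMC6 were lower in all 3 comparisons of day 8, by values between -0.35 and -0.06, and were not called. With its brightest probe alone, PSMC2 gave -0.30 with 50 nM for 24 h and -0.41 with 100 nM, and was called in both.

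PSMD1, the largest scaffold of the cap, was lower in all 3 exposed groups of day 8. It read 11.57, 11.59 and 11.60 in DMSO, 11.27, 10.94 and 11.22 with 50 nM for 12 h, 11.17, 11.30 and 11.08 with 50 nM for 24 h, and 10.98, 11.20 and 11.09 with 100 nM. No exposed array reached a DMSO array. It fell by 0.44, 0.40 and 0.50 (SE 0.09 each), with limma adjusted p of 0.00796, 0.0112 and 0.00198. Its 2 probes gave -0.60 and -0.40 at 100 nM.

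PSMD14, the deubiquitinase that removes ubiquitin chains before entry, read 10.003, 9.69 and 10.06 in DMSO and 9.34, 9.54 and 9.62 with 100 nM. It fell by 0.42 (SE 0.11, limma adjusted p = 0.0214), and the groups did not overlap. PSMD14 was not called at 100 nM with its brightest probe alone. With 50 nM for 24 h it read 9.40, 9.59 and 9.69, a difference of -0.36 (limma adjusted p = 0.0538), which was called with the replicate as a block. PSMD6, of the lid, fell by 0.37 at 100 nM (SE 0.09, limma adjusted p = 0.0148) and by 0.32 with 50 nM for 24 h (limma adjusted p = 0.0394). The last call was lost with the replicate as a block (limma adjusted p = 0.0536).

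PSMD2, which docks the shuttles that bring ubiquitinated proteins, read 12.35, 12.33 and 12.36 in DMSO and 11.74, 12.09 and 11.94 with 50 nM for 24 h. It fell by 0.42 (SE 0.10, limma adjusted p = 0.013). At this exposure PSMD2 was not called with its brightest probe alone. With 100 nM it read 12.03, 12.10 and 12.05, below every DMSO array, a difference of -0.29 that was not called (limma adjusted p = 0.0847).

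The 250 bases before the annotated start are shown for the 3 members whose calls at 100 nM held without each array in turn (RefSeq, GRCh38.p14, written 5′ to 3′ on the gene's strand). They are set beside motifs known from stress and interferon responses and beside the CCAAT box, which is in 33.1% of such windows of all genes. PSMB10 lies on the minus strand, chr16:67936851-67937100, PSMC3 on the minus strand, chr11:47426440-47426689, and PSMD1 on the plus strand, chr2:231056617-231056866. Capitals mark a match to a searched motif on either strand.
PSMB10: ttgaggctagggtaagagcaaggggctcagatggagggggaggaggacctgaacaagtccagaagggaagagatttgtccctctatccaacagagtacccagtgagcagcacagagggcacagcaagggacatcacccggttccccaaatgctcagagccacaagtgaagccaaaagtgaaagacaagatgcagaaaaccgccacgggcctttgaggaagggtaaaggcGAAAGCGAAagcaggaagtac
PSMC3: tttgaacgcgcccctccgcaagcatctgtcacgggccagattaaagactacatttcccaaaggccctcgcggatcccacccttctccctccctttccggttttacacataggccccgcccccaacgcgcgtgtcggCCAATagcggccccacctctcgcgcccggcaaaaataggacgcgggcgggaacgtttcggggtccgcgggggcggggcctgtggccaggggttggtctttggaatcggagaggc
PSMD1: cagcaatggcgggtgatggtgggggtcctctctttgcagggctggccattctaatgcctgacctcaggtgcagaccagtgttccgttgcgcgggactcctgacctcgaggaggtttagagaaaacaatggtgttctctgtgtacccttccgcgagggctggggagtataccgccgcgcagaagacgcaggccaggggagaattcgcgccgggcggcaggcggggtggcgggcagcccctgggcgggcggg
The motifs were the core of the antioxidant response element (TGACNNNGC), of the heat shock element (TTCNNNGAA) and of the interferon-stimulated response element (GAAANNGAA), and the CCAAT box. PSMB10 held GAAAGCGAA from 21 to 13 bases before its start, PSMC3 held CCAAT from 114 to 110 bases before its start, and PSMD1 held none of these letters.

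Of the 50 members, 44 had such a window, and they were set beside 27305 windows of all genes. The interferon element core was in 5 of the 44 (11.4%) and in 7.08% of all windows. The antioxidant element core was in 11 (25%) and in 11.1% of all, the heat shock core in 5 (11.4%) and in 6.78%, and CCAAT in 20 (45.5%) and in 33.1%. A match is a string of letters and not evidence of binding.

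With 50 nM for 24 h, 2 members rose and 6 fell on day 8, against 3.66% and 4.36% of all genes. All 6 that fell were 19S subunits: PSMC1, PSMC3, PSMC5, PSMD1, PSMD2 and PSMD6. Groups did not overlap for 6 members that were higher and 17 that were lower, against 12.5% and 15.6% of all genes. The cap had a median of -0.28, with 16 of 17 subunits lower, and the 20S core one of -0.07. The members had a median of -0.14 and all genes one of -0.02. Those that rose were PSMB10 and PSMG1.

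PSMG1 is a chaperone that builds the alpha ring with PSMG2. It read 11.31, 11.46 and 11.37 in DMSO, 11.54, 11.72 and 11.82 with 50 nM for 12 h, 11.75, 11.82 and 11.71 with 50 nM for 24 h, and 11.65, 11.70 and 11.61 with 100 nM. Every exposed array was above every DMSO array. It rose by 0.38 with 50 nM for 24 h (SE 0.10, limma adjusted p = 0.0238), and the other differences were 0.31 and 0.28 (limma adjusted p = 0.0799 and 0.0976). Its partner PSMG2 gave -0.14 with 50 nM for 24 h and -0.25 with 100 nM, neither called, and PSMG3 and PSMG4 lay between -0.08 and 0.17 in all 3 comparisons of day 8.

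With 50 nM for 12 h, 1 member rose, PSMB10, and 2 fell, PSMD1 and PSMD9, against 2.66% and 2.85% of all genes. Groups did not overlap for 3 members that were higher and 11 that were lower, against 10.5% and 13.1% of all genes. The members had a median of -0.06 and all genes one of -0.01. The cap subunits already had 16 of 17 below DMSO, at a median of -0.14, with 1 called. The exposures of day 8 share the same 3 DMSO arrays, so their values are not independent. Compared directly, 24 h against 12 h of 50 nM called 0 members in limma, against 0.268% of all genes in each direction. At an unadjusted p under 0.05, 1 member was higher and 6 were lower after 24 h (4.81% and 6.08% of all genes), among them PSMC3 with -0.36 (SE 0.09, limma adjusted p = 0.0667) and PSMD2 with -0.40 (SE 0.10, limma adjusted p = 0.087). Both were called in 4 of 11 other settings. Between 100 and 50 nM at 24 h, 0 members were called and 0 had an unadjusted p under 0.05, where 0% of all genes were called and 2.23% were up and 1.94% down at that p. The 17 cap subunits differed by between -0.15 and 0.23.

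**Figure D3:**
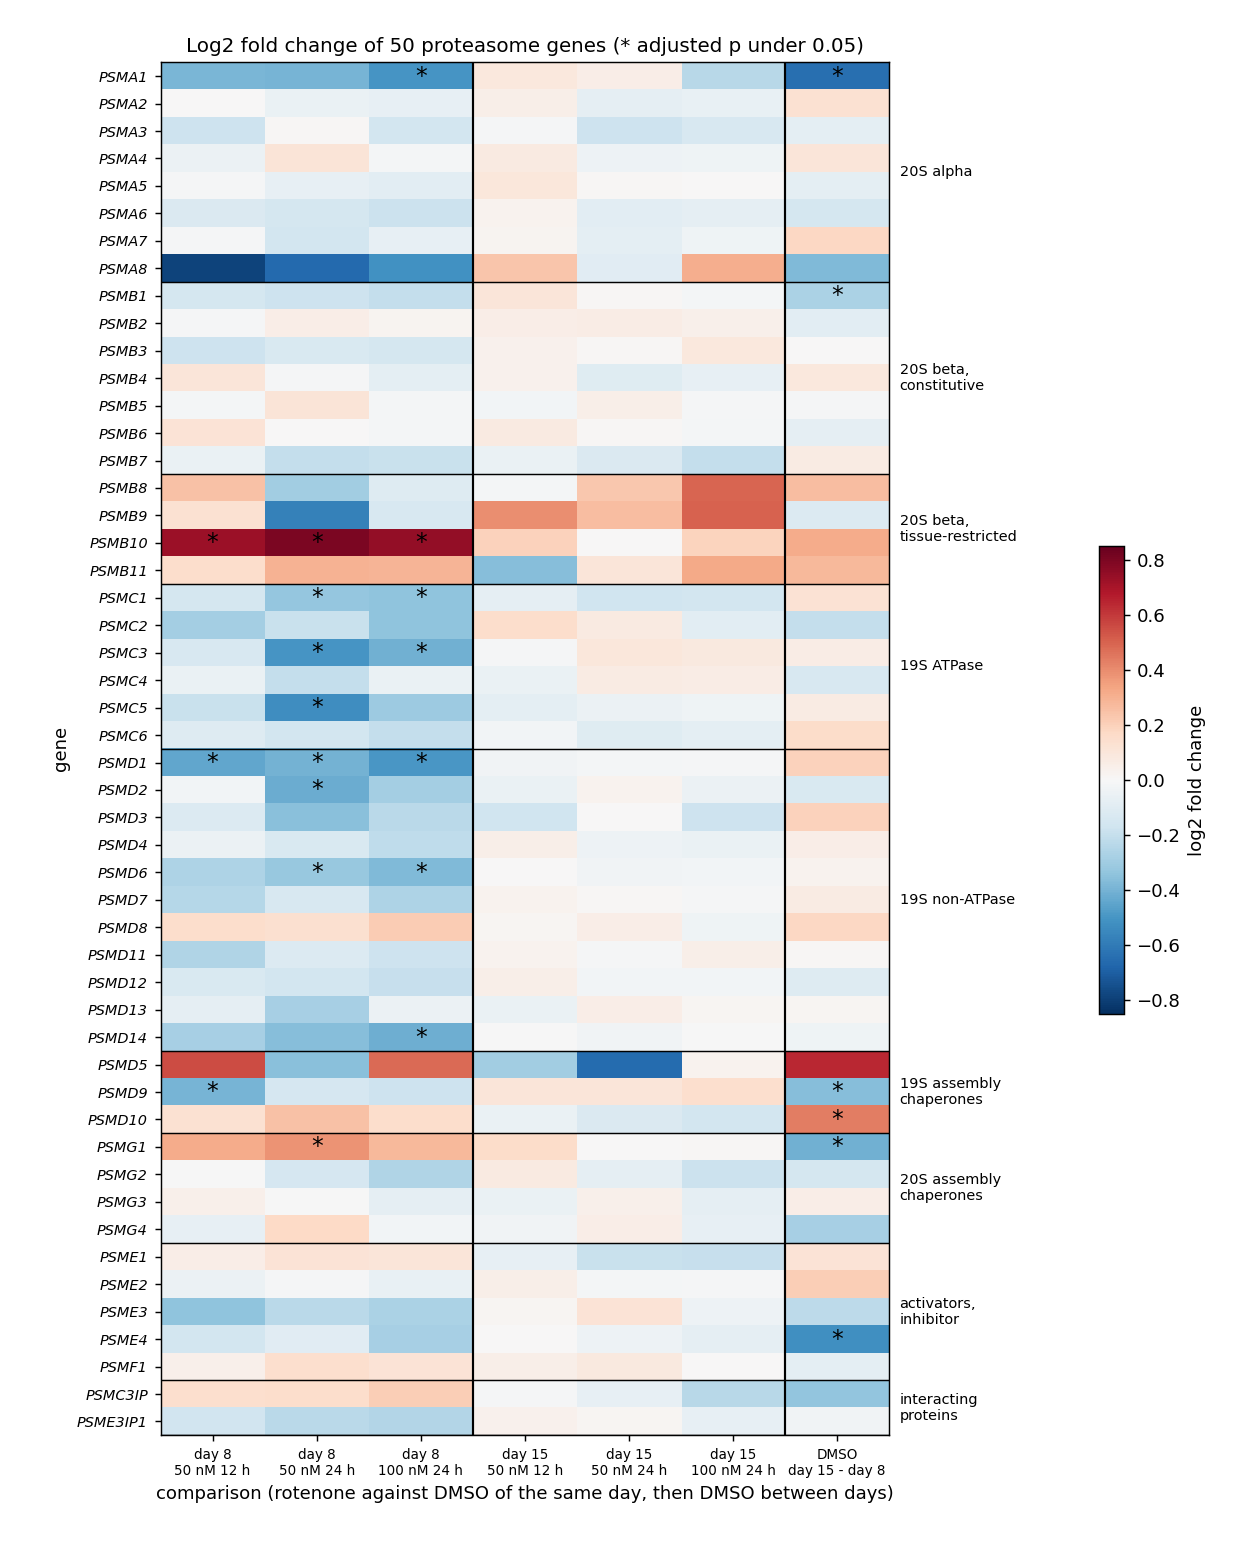
Log2 fold change (colour) of the 50 proteasome genes (rows, grouped by role) in the 6 comparisons of rotenone with DMSO of the same day and in DMSO of day 15 against day 8 (columns); stars mark an adjusted p under 0.05. The 19S rows are mostly blue on day 8 and pale on day 15, PSMB10 is red on day 8, and the last column has 6 stars.

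Among the members called with rotenone on day 8, probes of a gene disagreed for PSMA1 and PSMD9. Probes also differed in members that were not called. At 100 nM those of PSMF1 ran from -0.20 to 0.32, and those of PSME4 gave -0.09 and -0.48. PSMA1, an alpha ring subunit, read 10.10, 10 and 9.90 in DMSO and 9.43, 9.64 and 9.42 with 100 nM as the mean of its probes. It fell by 0.50 (SE 0.15, limma adjusted p = 0.0357). The brighter probe gave -0.07 (SE 0.08) and the dimmer one, designed to another transcript, gave -0.94 (SE 0.28). The call therefore rests on the dimmer probe, and with the brightest probe alone PSMA1 was not called.

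PSMD9 is a chaperone of the ATPase ring. It read 9.21, 9.05 and 9.15 in DMSO and 8.73, 8.66 and 8.84 with 50 nM for 12 h, and fell by 0.40 (SE 0.09, limma adjusted p = 0.0135). Its brighter probe gave -0.03 (SE 0.11) and its dimmer one -0.77 (SE 0.11). With 100 nM the probes pointed in opposite directions, at 0.15 and -0.50.

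**Figure D4:**
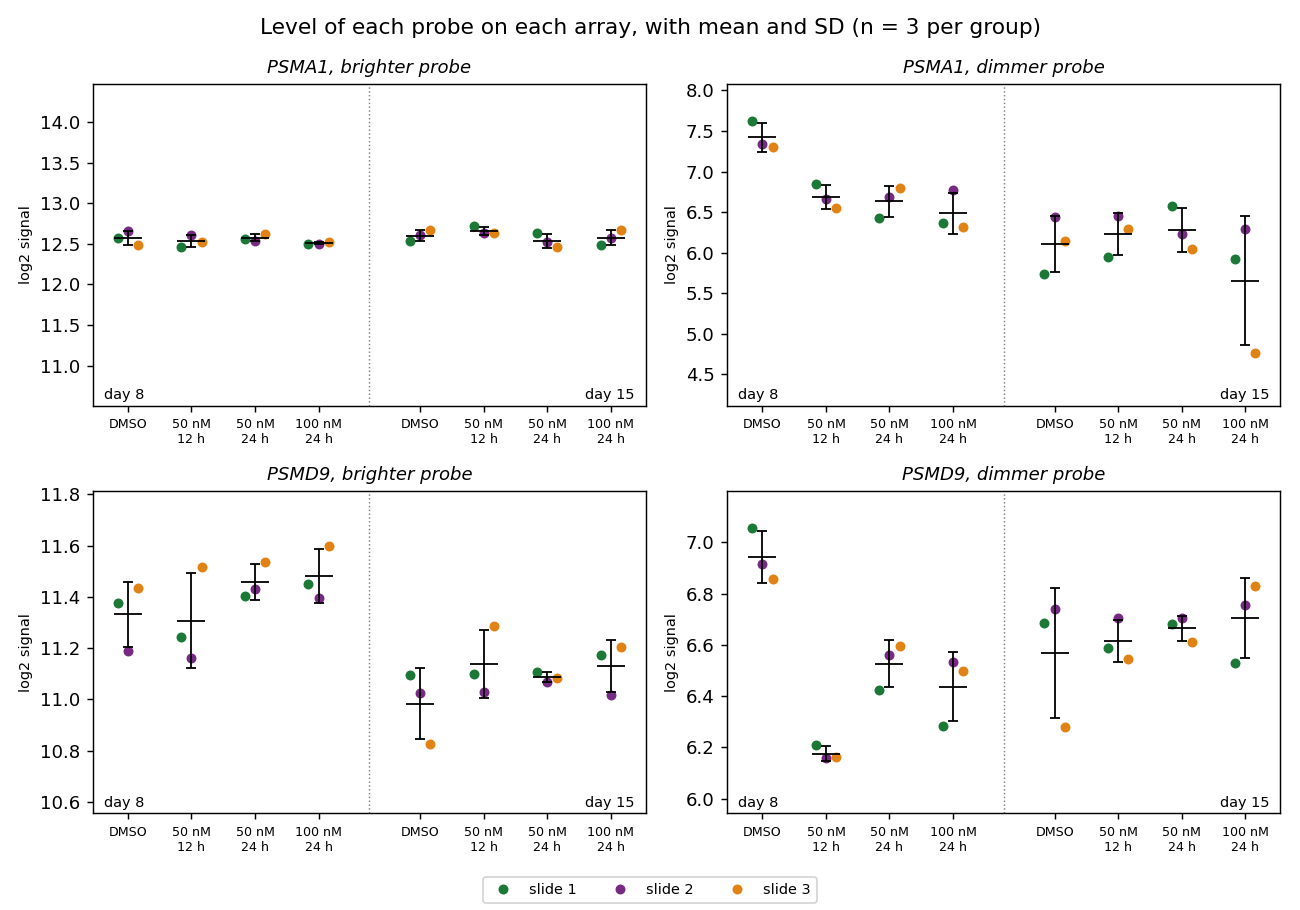
Log2 signal of each probe of PSMA1 (top) and PSMD9 (bottom) on each array, coloured by slide, with mean and SD of the 3 arrays of a group; both panels of a gene span the same number of log2 units. The day 8 decrease of either gene is in the dimmer probe, while the mean of the day 15 DMSO arrays of PSMD9 is below that of day 8 in both probes.

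The other chaperones and the activators gave no call with rotenone on day 8. PSMD10, an oncoprotein and chaperone of the ATPase ring, lay between 0.13 and 0.25. PSME1 and PSME2, which form the interferon-inducible cap of the core, lay between -0.06 and 0.11, and the inhibitor PSMF1 between 0.04 and 0.14. PSME3, a nuclear cap, gave -0.34, -0.23 and -0.27 in the order of 50 nM 12 h, 50 nM 24 h and 100 nM, below every DMSO array each time. PSME4, the cap of histone degradation, gave -0.28 at 100 nM (SE 0.11, limma adjusted p = 0.128). Its brightest probe alone gave -0.48 and was called.

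The number of day 8 calls dropped without batch correction, with fewer arrays in the fit and without some single arrays. Most calls held with the replicate as a block in place of ComBat. At 100 nM, 2 members (PSMB10 and PSMD1) were called without batch correction, 2 with the compared arrays alone and 0 with slides 2 and 3 alone, and 3 (PSMB10, PSMC3 and PSMD1) without DMSO replicate 1. Calls over all genes dropped as well, from 2014 of 21240 to 633 of 21344, 808 of 21240, 295 of 20128 and 1439 of 21228 in that order. Every gene called on day 8 kept its direction in all of the settings and left-out arrays tried.

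Some neuron markers fell in the same samples. At 100 nM on day 8, 3 of 12 fell, MAP2 by 0.57, ELAVL4 by 0.51 and SNAP25 by 0.30, and 0 rose. Of the 12, 7 had a lower mean than in DMSO and 5 a higher one, TH among them. In this comparison 4.07% of all genes rose and 5.41% fell. Of 11 precursor and proliferation markers, VIM rose by 0.42 and 0 fell, while the median of the list was -0.27 and 8 of the 11 had a lower mean than in DMSO. The mean log2 signal of the neuron markers ran from 11.17 to 11.22 in DMSO and from 11.03 to 11.06 with 100 nM. That of the immune cell markers ran from 4.38 to 4.52 and from 4.26 to 4.46, and that of the glial markers from 4.93 to 5.38 and from 4.92 to 5.09. Of the immune and glial markers, 0 were called at 100 nM on day 8. Their part in the results on proteasome genes was not tested.

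The proteasome partners, a list of 30 genes that make or read ubiquitin chains or regulate the proteasome, were tested for 27 of them. At 100 nM on day 8, 2 rose and 2 fell (4.07% of all genes rose and 5.41% fell), with a median of -0.11. VCP, the ATPase that pulls ubiquitinated proteins out of complexes and membranes, read 14.39, 14.13 and 14.40 in DMSO and 13.58, 13.63 and 13.60 with 100 nM. It fell by 0.70 (SE 0.09, limma adjusted p = 2.96e-05) without overlap. Its cofactor UFD1 fell by 0.43 (limma adjusted p = 0.00194). PAAF1, a chaperone of the ATPase ring, rose by 0.47 (limma adjusted p = 0.0144), and TXNL1, a thioredoxin of the cap, rose by 0.33 (limma adjusted p = 0.0104).

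NFE2L1, the transcription factor that drives proteasome genes when the protease is inhibited, read 11.50, 11.64 and 11.49 in DMSO of day 8. It read 11.18, 11.24 and 11.26 with 50 nM for 12 h, 11.35, 11.44 and 11.33 with 50 nM for 24 h, and 11.32, 11.43 and 11.38 with 100 nM, all below DMSO. It fell by 0.32 after 12 h (SE 0.07, limma adjusted p = 0.0144) and differed by -0.17 in either 24 h group (limma adjusted p = 0.2 and 0.196). Among the 24 tested of 26 listed genes of antigen presentation and the interferon response, 1 rose at 100 nM on day 8 and 0 fell. The share that rose was near that of all genes, of which 4.07% rose and 5.41% fell. The gene that rose was ISG15, a ubiquitin-like protein, with 0.83 (SE 0.13, limma adjusted p = 0.000257), and the median of the list was 0.14.

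After wash-out, 0 members were called on day 15 in any of the 3 comparisons with DMSO, as were 0% of all genes. At an unadjusted p under 0.05 in limma, 50 nM for 12 h gave 0 members (1.53% of all genes up and 1.94% down). With 50 nM for 24 h it was 1, PSMC1 at -0.17 (1.73% up and 1.55% down), and with 100 nM 1, PSMB8 at 0.50 (2.26% up and 4.95% down). PSMB8 read 3.98, 4.35 and 3.87 in DMSO, not well above background on any of these arrays, and 4.41, 4.44 and 4.86 with 100 nM, well above background on 2 of 3. No other setting called a member there, and neither did leaving out any array. At 100 nM the members had a median of -0.03 and all genes one of -0.03. The 17 cap subunits ran from -0.18 to 0.08.

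The members whose day 8 calls at 100 nM held without each array in turn had overlapping groups on day 15. PSMB10 read 10.14, 10.30 and 10.62 in DMSO and 10.70, 10.21 and 10.71 with 100 nM, a difference of 0.19 (95% confidence interval -0.13 to 0.51). PSMC3 read 11.28, 11.16 and 11.15 in DMSO and 11.31, 11.23 and 11.31 with 100 nM, a difference of 0.08 (95% confidence interval -0.10 to 0.26). PSMD1 read 11.92, 11.77 and 11.66 in DMSO and 11.74, 11.82 and 11.76 with 100 nM, a difference of -0.01 (95% confidence interval -0.21 to 0.19).

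**Figure D5:**
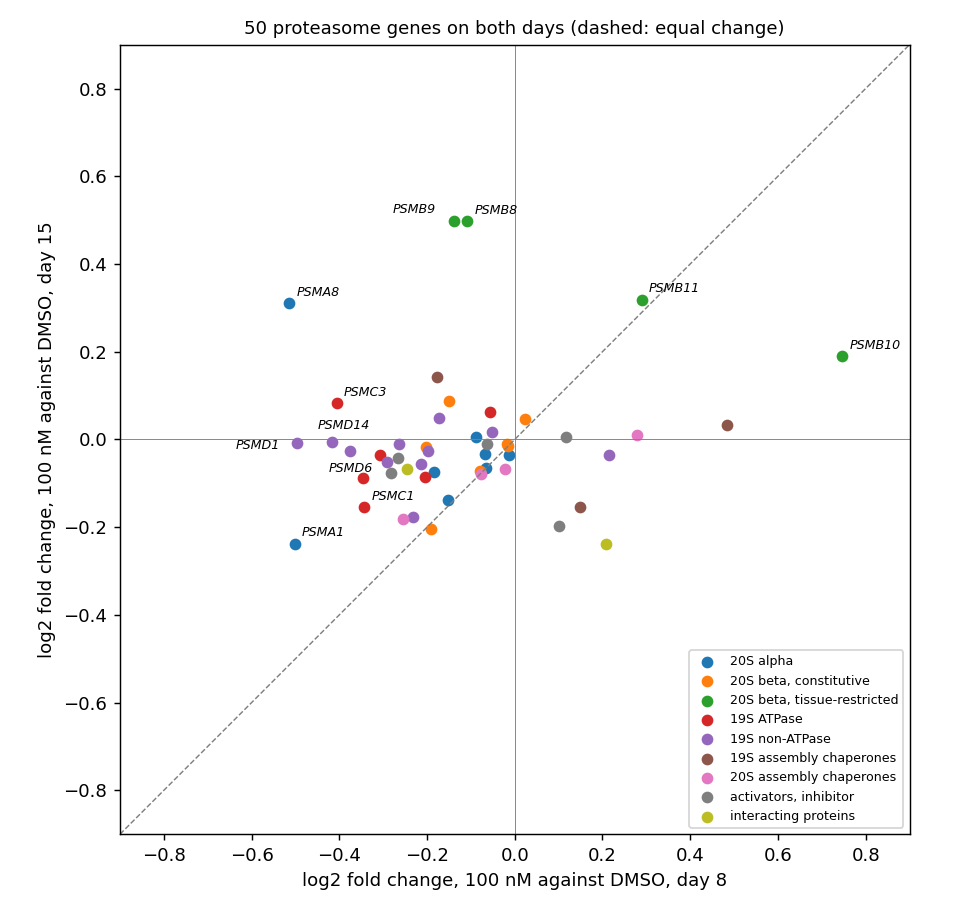
Log2 fold change with 100 nM rotenone against DMSO of the same day, on day 8 (horizontal axis) and on day 15 (vertical axis), of each of the 50 proteasome genes, coloured by role; the dashed line marks equal change, and genes called on day 8 or beyond 0.25 on day 15 are named. The genes called on day 8 lie between -0.24 and 0.19 on day 15, and PSMA8, PSMB8, PSMB9 and PSMB11, above 0.25 on day 15, are those with dim probes.

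The change with 100 nM on day 15 was compared with that on day 8 by an interaction term. Of the 50 members, 1 was called, PSMC3, against 1.15% of all genes called up and 1.29% called down. Its change was higher on day 15 by 0.49 (SE 0.12, limma adjusted p = 0.0391). The call was lost with the replicate as a block (limma adjusted p = 0.0595), and it held without 3 of the 12 arrays taken out in turn. PSMD1 had the same difference of 0.49 (SE 0.13, limma adjusted p = 0.0616) and PSMB10 one of -0.56 (SE 0.22, limma adjusted p = 0.22). With the block PSMB10 was the only member called. The cap subunits had a median difference of 0.22, with 16 of 17 higher on day 15, and all genes had one of -0.01.

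Change with time in culture was read from DMSO of day 15 against day 8. Day 8 DMSO was collected right after exposure and day 15 DMSO after wash-out, so time cannot be told apart from these steps. Of the 50 members, 1 rose and 5 fell, while 10.1% of all genes rose and 13.2% fell. Groups did not overlap for 5 members that were higher and 8 that were lower, against 17.4% and 22.6%. The 17 cap subunits gave 0 calls in limma and a median of 0.06, with 1 higher at an unadjusted p under 0.05 (14.6% of all genes up and 19.1% down), PSMD8 at 0.17. The members had a median of 0.01 and all genes one of -0.04.

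PSME4 read 9.26, 9.32 and 9.37 on day 8 and 8.72, 8.94 and 8.73 on day 15, and fell by 0.52 (SE 0.11, limma adjusted p = 0.00162). PSMG1 read 10.89, 10.96 and 11.06 on day 15, below its day 8 values, and fell by 0.41 (SE 0.10, limma adjusted p = 0.0058). These 2 calls held without each array in turn. PSMB1, a constitutive beta subunit, fell by 0.27 (SE 0.08, limma adjusted p = 0.0196). Its call held without 3 of the 6 arrays taken out in turn and in 7 of 11 other settings.

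PSMD9 read 8.89, 8.88 and 8.55 on day 15 and fell by 0.36 (SE 0.09, limma adjusted p = 0.00677), with -0.35 and -0.37 in its probes. The call of PSMD9 held without each array in turn. PSMD10 read 8.31, 7.99 and 8.18 on day 8 and 8.47, 8.66 and 8.64 on day 15, and rose by 0.43 (SE 0.12, limma adjusted p = 0.0135). The call of PSMD10 held without 4 of the 6 arrays taken out in turn. PSMA1 read 9.14, 9.52 and 9.40 on day 15 and fell by 0.64 as the mean of its probes (limma adjusted p = 0.00313). Its brighter probe gave 0.03, so that the direction turned with the choice of probe.

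PSMB10 was 0.32 higher on day 15 (SE 0.15, limma adjusted p = 0.156), with every day 15 array above every day 8 array. With the replicate as a block it was called. PSMB5, PSMB6 and PSMB7 differed by -0.01, -0.07 and 0.07. Markers of the cells also changed between the days. Of the 12 neuron markers 3 rose and 3 fell, with a median of 0.23, while 10.1% of all genes rose and 13.2% fell. NR4A2, a transcription factor of dopaminergic neurons, rose by 1.57, ELAVL4 by 0.45 and SNAP25 by 0.29, while TH, the rate-limiting enzyme of dopamine synthesis, fell by 2.94, the dopamine transporter gene SLC6A3 fell by 2.07 and MAP2 fell by 0.46. Of the 11 precursor and proliferation markers 7 fell and 1, VIM, rose by 0.67, and BIRC5, an inhibitor of apoptosis in dividing cells, fell by 2.62. Of the 7 glial markers OLIG2 fell by 4.002 and 0 rose. The mean log2 signal of the precursor and proliferation list ran from 6.66 to 7.25 on day 8 and from 5.85 to 6.09 on day 15. Their part in the changes of proteasome genes was not tested.

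Of the 24 interferon and antigen presentation genes, 5 rose and 2 fell in the same comparison, with a median of 0.26. The share called, 29.2%, was near the 23.2% of all genes. ISG15 rose by 1.90 (limma adjusted p = 1.98e-09) and IFI6 by 1.41 (limma adjusted p = 8.9e-06). IFIT1, which was not well above background on any DMSO array of day 8, had a mean signal of 4.12 there and 5.63 on day 15 (limma adjusted p = 0.000785). This estimate, 2.83-fold, rests on a day 8 level near background. ERAP1, which trims peptides for presentation, fell by 0.71, and STAT2, which transmits the interferon signal, by 0.70. Among the partners, NFE2L1 rose by 0.35 (SE 0.07, limma adjusted p = 0.00155) and VCP fell by 0.26.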

How the data were processed

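RNA of 24 samples (8 groups of 3) was hybridised in one colour to Agilent arrays of 62976 spots. The authors deposited the scanner files, from which the median spot intensity and background were used, and a table of normalized log2 values. Submitters' notes name Feature Extraction 11.5.1.1 and R 3.5, while the files of slide 2 were written with version 12.0.0.7. Following the study's methods, background was corrected with normexp (offset 0), arrays were quantile normalized and the slide marked as repeated in the labels (the study states only that some arrays were run at another time with other washing) was corrected with ComBat with the group as covariate, written out here and tested on simulated data, where its p values were somewhat too small. Spots were kept when above 1.1 times the 95th percentile of 308 negative controls on at least 3 arrays, which left 59462 spots and 21240 named genes (30275 of 50599 probes had a gene symbol), the mean of their probes. One limma model (3.58.1, R 4.3.3, data.table version 1.17.8) with 8 groups, 16 residual and 2.37 prior degrees of freedom gave 10 contrasts, adjusted by Benjamini-Hochberg. The precision is limited by the 3 arrays per group. Figures used Python 3.11.15 and matplotlib 3.10.9.

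Replicate numbers coincide with slides. Before batch correction, the deviations of same-numbered arrays from their group means had a lowest correlation of 0.17 and a median of 0.46 over 84 pairs, against a median of -0.35 over 168 other pairs, so the numbers pair the arrays. Alternatives were the processed signal scaled to its 75th percentile, an offset of 50, 75th percentile scaling, the replicate as a block, no batch correction, other filters, only the compared arrays, slides 2 and 3 alone, the brightest probe, the deposited table and leaving out each array. The deposited log2 table holds 47 of the members, and its arrays correlated with those computed here by 0.989 or more, with column medians of 6.42 to 6.64. Its batch correction and centring are not stated in the file. Named were the called members with the 4 largest differences in each direction per comparison, PSMB5 to PSMB10, and from the lists the called genes with the 3 largest differences and NFE2L1. The members and lists were chosen with earlier results of these data known. Promoter windows are those of RefSeq, and the array's own coordinates were not used here. Some results for the partner list between the DMSO groups are not reported here.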

Additional observations from a re-analysis of the deposited data

Results flagged for a closer look

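Tested were the 50 proteasome genes, 27 of their partners and 24 genes of the interferon list. The change with 100 nM rotenone against DMSO differed between day 15 and day 8 for 3 of them by the interaction term of limma. This term called 1.15% of all genes up and 1.29% down. For PSMC3 the difference was 0.49 on the log2 scale (SE 0.12, limma adjusted p = 0.0391), a call lost with the replicate as a block (limma adjusted p = 0.0595). For VCP the difference was 0.70 (SE 0.12, limma adjusted p = 0.00324) and for ISG15 -0.84 (SE 0.18, limma adjusted p = 0.0146). VCP read 14.08, 14.02 and 14.05 in DMSO of day 15 and 14.08, 14.001 and 14.05 with 100 nM. ISG15 read 10.71, 10.72 and 10.98 in DMSO of day 15 and 10.84, 10.64 and 10.92 with 100 nM. Both overlapped on day 15, while neither did on day 8.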

How the results depend on the processing

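With 3 samples per group from 1 line, most proteasome calls held with the replicate as a block in place of ComBat. Most were lost without any batch correction. Most were also lost with the compared arrays alone, which kept the ComBat correction, and with slides 2 and 3 alone. With slides 2 and 3 alone, the treatment of slide 1 cannot be told apart from the loss of arrays. The numbers of members called with 50 nM 12 h, 50 nM 24 h, 100 nM, DMSO between days and the interaction were 3, 8, 7, 6 and 1. They were 0, 1, 2, 3 and 0 without batch correction, 0, 1, 2, 3 and 0 with the compared arrays alone, and 0, 0, 0, 0 and 0 with slides 2 and 3 alone, which leave 2 arrays per group. With an offset of 50 they were 6 for 12 h, 13 for 100 nM, 2 for 24 h against 12 h of 50 nM (0 in the chosen setting) and 2 for the interaction. With the deposited values these 4 counts were 9, 13, 2 and 3. The filter on signals well above background gave 5 for 12 h, 2 for 24 h against 12 h and 2 for the interaction. The processed signal gave 5 for 12 h, 75th percentile scaling 2 for 24 h against 12 h, and the brightest probe 2 for the interaction. Leaving out 1 array gave 1 to 5 for 12 h, 3 to 9 for 50 nM 24 h, 3 to 7 for 100 nM, 4 to 6 for DMSO between days, 0 to 2 for 24 h against 12 h and 0 to 2 for the interaction. The lowest counts came without 50 nM 12 h replicate 2 (1), 50 nM 24 h replicate 1 (3) and day 8 DMSO replicate 1 (3 at 100 nM). Day 15 and 100 against 50 nM gave 0 throughout. PSMA1 turned to 0.028 in DMSO between days with its brightest probe, and also in the fit of that probe alone, an alternative chosen after seeing the data. The processed signal moved the median of all genes at 100 nM on day 8 from -0.02 to 0.10, where the members' median was -0.11. Calls over all genes moved with the setting too. At 100 nM on day 8 they were 2014 of 21240 in the chosen setting and 633 of 21344 without batch correction. They were 808 of 21240 with the compared arrays alone and 295 of 20128 with slides 2 and 3 alone. With an offset of 50 they were 2668 of 19371, and with the deposited values 2841 of 19610. For 50 nM 12 h they were, in the same order, 1172, 243, 68, 95, 1752 and 1883.

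With the replicate as a block in place of ComBat, the counts were 3, 8, 8, 7 and 1. PSMD6 at 50 nM 24 h and PSMC3 in the interaction were no longer called (limma adjusted p = 0.0536 and 0.0595). PSMD14 at 50 nM 24 h, PSME3IP1 at 100 nM, and PSMB10 in DMSO between days and in the interaction were called in addition. The block changed no other call of a member.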
